A study of Arabidopsis thaliana with 14 samples.

Results

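ARR1 is a type-B response regulator of Arabidopsis thaliana, and its binding after 4 h of the cytokinin 6-Benzylaminopurine (6-BA) was set against its binding after mock treatment. The binding was measured by chromatin immunoprecipitation and sequencing (ChIP-seq), and the members described here are all 11170 peaks deposited for these conditions, 7846 after 6-BA and 3324 after mock, of the 66593 peaks in the 10 lists of the series. The 6-BA list came from whole seedlings, 3 days old and grown in long days, that were given 10 µM 6-BA for 4 h. The mock list came from seedlings of the same age and light, given the solvent DMSO for 4 h. The study made its tagged lines in the wild-type Col-0 background, and whether both lists came from the same line is not stated. Both groups carried ARR1 tagged with the yellow fluorescent protein Ypet, on a large genomic clone with ARR1 at its centre that was introduced as a transgene, and an antibody against GFP pulled down the tagged protein. Each condition has 1 list, combined by the authors from at least 2 replicates, so there was no replicate spread and no test between conditions. Whether the deposited mock list is the one behind the study's own mock targets could not be settled, and every count of peaks or genes found in a single condition holds for the deposited lists only. A peak score is the deposited −log10 p-value of enrichment over input DNA, fold enrichment is the deposited ratio to input, and the rank percentile of a peak runs from 0 (highest score) to 100 within its own list. Shares carry 95% Wilson intervals, which reflect counting error alone, and the read depth behind each list is unknown.

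Cytokinin is perceived by membrane receptor kinases, the AHKs, which pass phosphate through AHP proteins to the response regulators in the nucleus. Phosphorylated type-B regulators such as ARR1 bind DNA and switch on their targets. Among these targets are the type-A regulators, which dampen the same pathway, and the cytokinin oxidases (CKX), which degrade the hormone. The receiver domain of a type-B regulator restrains it until it is phosphorylated.

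Places and letters at the peaks that most set the lists apart are shown first. The sequences are from the TAIR10.1 assembly of RefSeq, read on the plus strand from 5′ to 3′, and run from 50 bp before to 50 bp after a summit. Where that stretch held untranslated exon, only 30 bases are printed, around the motif match nearest the summit or, with no match, around the summit itself. Capitals mark the motif AGAT followed by A, C or T and then by C or T, on either strand, the consensus named in the study for ARR1 in cytokinin-treated seedlings. The first pair are the highest peaks found after 6-BA and overlapped by no mock peak, downstream of AT1G02210 on chromosome 1 (chr1:426574-426674) and in an exon of AT4G03600 on chromosome 4 (chr4:1604326-1604355). The second pair are the highest mock peaks overlapped by no 6-BA peak, in the coding sequence of CAB2 (chr1:10475081-10475110) and of DELTA-TIP (chr3:5506443-5506543). The third pair are the 6-BA summits of the shared peaks that stood highest in the 6-BA list relative to mock, upstream of SDR4 (chr3:11195426-11195526) and NF-YA7 (chr1:10806469-10806569). The last pair are the 6-BA summits of those that stood lowest, in LHB1B2 (chr2:14523459-14523488) and AT4G36850 (chr4:17355750-17355779).
AT1G02210, 6-BA only: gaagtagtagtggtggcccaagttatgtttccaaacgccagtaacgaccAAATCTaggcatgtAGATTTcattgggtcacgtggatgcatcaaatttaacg
AT4G03600, 6-BA only: tgcttatcgatcGAATCTgttttgAGATTT
CAB2, mock only: aacttggctcactttccgggaacaaagttg
DELTA-TIP, mock only: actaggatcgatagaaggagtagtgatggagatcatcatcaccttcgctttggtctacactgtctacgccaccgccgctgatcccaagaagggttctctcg
SDR4, higher in the 6-BA list: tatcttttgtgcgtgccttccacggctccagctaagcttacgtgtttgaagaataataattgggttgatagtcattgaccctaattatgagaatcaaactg
NF-YA7, higher in the 6-BA list: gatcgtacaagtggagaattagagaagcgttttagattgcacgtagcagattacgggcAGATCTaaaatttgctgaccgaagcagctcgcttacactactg
LHB1B2, lower in the 6-BA list: tcacagcctttccggcgaaggcaggggagg
AT4G36850, lower in the 6-BA list: agtcatcgaagtATATCTctacccatctca
The printed stretches held 2 matches at each of the 6-BA only peaks and 0 at each of the mock only peaks. They held 0 at SDR4, 1 at NF-YA7, 0 at LHB1B2 and 1 at AT4G36850. The stretches at AT4G03600 and AT4G36850 were placed on a match and leave out the summit, so they held at least 1 by construction. These counts are therefore not compared. In the 200 bp around each summit there were 2 matches at AT1G02210, 4 at AT4G03600, and 0 at CAB2 and at DELTA-TIP. In the same window SDR4, NF-YA7 and AT4G36850 had 1 each and LHB1B2 had 0.

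The tagged gene itself lay under peaks in both conditions. Within 50 kb of ARR1 (chr3:5705714-5809443), peaks covered 40.2% of the bases in the 6-BA list and 41.8% in the mock list, where 16 of 7846 and 18 of 3324 peaks lay. The lists labelled ARR10 covered 54.2% of the same interval after mock and 52.2% after 6-BA, and the ARR12 and ARR14 lists between 3.03% and 16.5%. Comparisons with the ARR10 lists are therefore also given without them, and the ARR12 lists are named as labelled.

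Most 6-BA peaks had no mock counterpart, while the share of mock peaks with a 6-BA counterpart depended on what counts as overlap. Of 7846 6-BA peaks, 1636 (20.9%, 20–21.8%) overlapped a mock peak by at least 1 bp and 6210 (79.1%) did not. Of 3324 mock peaks, 1855 (55.8%, 54.1–57.5%) overlapped a 6-BA peak and 1469 (44.2%) did not. With summits at most 200 bp apart in place of 1 bp of overlap, the shares were 13.4% of 6-BA and 31.5% of mock peaks, with reciprocal overlap of at least 50% they were 7.38% and 17.4%, and without peaks over 3 kb wide 18.2% and 43.4%. The counts differ because 197 of the 1636 6-BA peaks covered more than 1 mock peak. The 6-BA peaks covered 8.11% of the 5 nuclear chromosomes and the mock peaks 1.73%. A minimum score of 16 kept 4580 of the 6-BA peaks and 73 of the mock peaks, and the overlapped shares were then 1.48% of 6-BA and 93.2% of mock peaks.

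The lists also ended at different scores. Scores ran from 9.85 to 120.42 after 6-BA, with a median of 17.82, and from 4.88 to 67.24 after mock, with a median of 5.88. Over the whole lists fold enrichment was not larger after 6-BA, with a median of 2.26 (1.68 to 5.24) in the 6-BA list and 2.49 (1.99 to 8.53) in the mock list. At equal numbers of peaks the order was the other way, with a median of 2.75 for the top 6-BA peaks and 2.49 for the mock peaks. The top 6-BA peaks were picked by score, whereas the mock list was taken whole. Their higher median therefore follows at least in part from that choice. Taking only the 3324 highest 6-BA peaks, which all scored at least 20.10, 1419 mock peaks (42.7%, 41.0–44.4%) overlapped one of them. Another 436 mock peaks overlapped only a lower 6-BA peak. Of the 3324 top 6-BA peaks, 1216 (36.6%) overlapped a mock peak and 2108 (63.4%) did not. The last peak inside this limit lay downstream of GPRI1 and the first outside lay upstream of AT2G23710, both with a score of 20.10 and a fold enrichment of 2.39.

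Overlap was tied to rank in both lists. In the highest 10% of the 6-BA list, 523 of 784 peaks (66.7%, 63.3–69.9%) overlapped a mock peak, against 41 of 785 (5.22%, 3.87–7.01%) in the lowest 10%. In the mock list the same shares were 309 of 332 (93.1%, 89.8–95.3%) and 115 of 333 (34.5%, 29.6–39.8%). Higher peaks were also wider. Median widths in the highest and lowest 10% were 1803 and 665 bp in the 6-BA list and 1087 and 352 bp in the mock list. The part of width in the tie between overlap and rank was not tested. Median scores were 16.17 for the 6-BA only peaks and 32.02 for the overlapped 6-BA peaks, and 5.75 for the mock only peaks and 6.64 for the overlapped mock peaks. Peaks found in a single condition were also narrower, though a wide peak meets the rule of 1 bp more readily, so width is tied to the classes by construction. The median width was 887 bp for 6-BA only and 1597 bp for overlapped 6-BA peaks, and it was 326 bp for mock only and 617 bp for overlapped mock peaks.

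**Figure D1:**
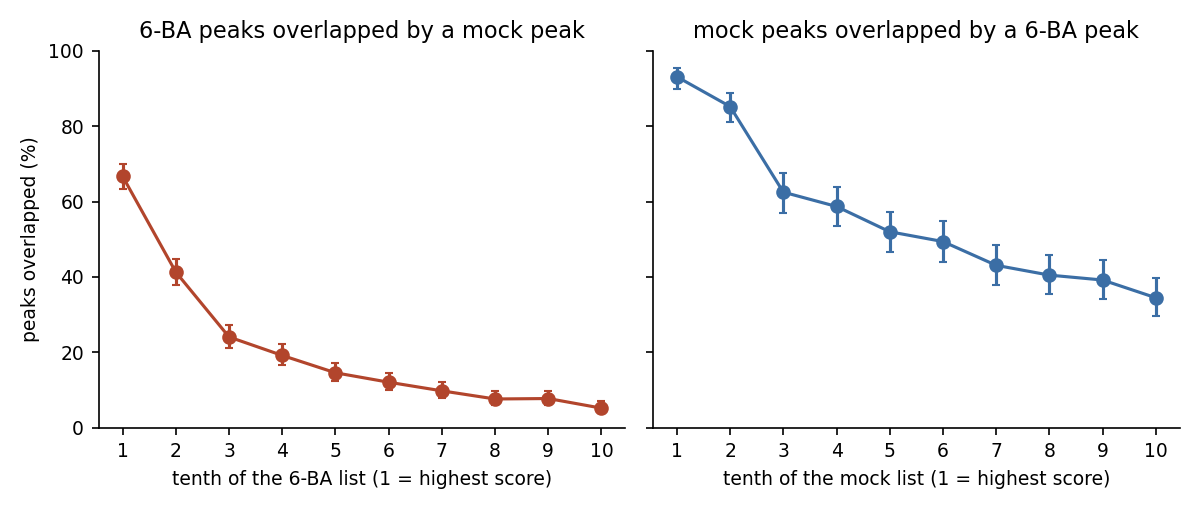
Share of peaks (%, with 95% Wilson intervals) overlapped by a peak of the other condition, for 10 rank bins of the 6-BA list (left) and of the mock list (right), numbered from the highest scores (1) to the lowest (10). The share is 66.7% in the first and 5.22% in the last bin of the 6-BA list, and 93.1% and 34.5% in those of the mock list.

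The strongest peaks of both lists lay at different kinds of places. After 6-BA the highest score was 120.42, between EBF1, an F-box protein that marks the ethylene regulator EIN3 for degradation, and its neighbour AT2G25482. Its mock score was 34.26, and it stood at percentile 0.0127 in the 6-BA list and 0.181 in the mock list, with summits 20 bp apart. It was followed by a peak with its summit at −447 bp from the TSS of ARR4 (negative values are upstream), a type-A regulator, with scores of 112.50 after 6-BA and 17.71 after mock. Its summits were 75 bp apart. The third peak had no gene within 1.5 kb of its summit, which lay at −1583 bp from the TSS of the nearest gene, AT5G67411, a GRAS-family transcription factor, and scored 109.67 after 6-BA and 27.77 after mock. Peaks near AT1G49500 (107.55 after 6-BA and 18.38 after mock) and CKX5 (107.55 and 17.04) came next. In the last 3 pairs the summits were 3325, 1097 and 2253 bp apart, so their scores belong to different positions in overlapping peaks. Of these 5 summits, 4 lay outside any gene and that of CKX5 lay in an intron.

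The 5 highest mock peaks were overlapped by 6-BA peaks as well, and all their mock summits lay in exons. The first lay in RAP2.4, an AP2/ERF transcription factor, with scores of 91.79 after 6-BA and 67.24 after mock, and summits 1850 bp apart. UBQ10, a polyubiquitin gene, had scores of 72.19 after 6-BA and 55.82 after mock. For the monooxygenase gene MO1 the scores were 81.31 after 6-BA and 49.07 after mock, for the nitrate reductase gene NIA2 78.12 and 46.48, and for J11, which encodes a DnaJ-domain chaperone, 79.39 and 39.31. The summits were 549 bp apart at UBQ10, 2059 bp at NIA2, and 2 bp at MO1 and at J11. These peaks ranked high in both lists, between percentiles 0.242 and 1.5 after 6-BA and between 0.0301 and 0.15 after mock. Their fold enrichment was lower after 6-BA, for example 4.56 after 6-BA and 8.53 after mock at RAP2.4.

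Across all shared peaks, rank in one list carried over to the other only in part. Each of the 1855 overlapped mock peaks was paired with the highest 6-BA peak it touched, and Spearman's rho between the scores was 0.35 over these pairs, given as a description since peaks are not replicates and many scores are tied (7352 of 7846 6-BA peaks and 3182 of 3324 mock peaks shared their score with another). The median percentile of the pairs was 17.2 in the 6-BA list and 36.6 in the mock list. Because the 6-BA list is longer, percentiles of shared peaks are smaller there by construction, and only differences between kinds of pairs are read. The median shift (6-BA percentile minus mock percentile) was −14.3 for the 842 pairs with the mock summit between genes and −2.62 for the 496 pairs with the mock summit in coding sequence. A higher standing after 6-BA was seen in 75.8% of the intergenic and 55.8% of the coding pairs. With the mock summit within 250 bp of a TSS the median shift was −17.2 (502 pairs), and farther from a TSS it was −8.79 (1353 pairs). Median percentiles were 15.6 after 6-BA and 43.5 after mock near a TSS, and 17.8 and 33.2 farther away. These kinds thus differed more in the mock list than in the 6-BA list, and a pair low in the mock list has more room to rise. For intergenic pairs the medians were 13.8 after 6-BA and 33.2 after mock, and for coding pairs 24.8 and 36.4. The median shift was −11.3 both with the motif in the mock summit window (1213 pairs) and without it (642 pairs).

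**Figure D2:**
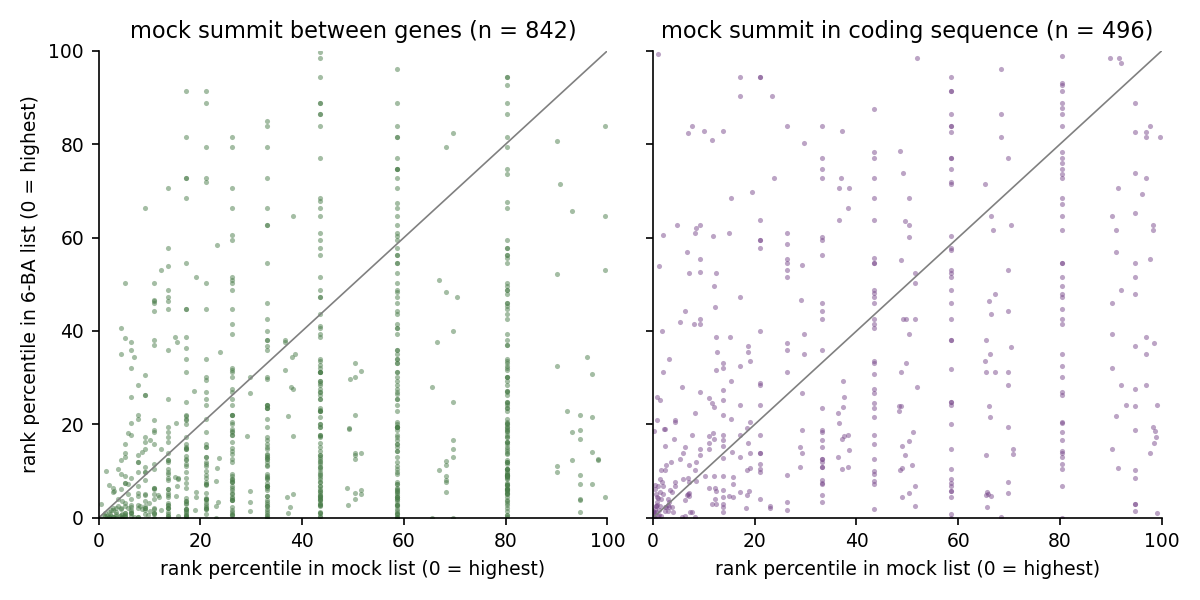
Rank percentile in the 6-BA list (y axis, 0 = highest) against that in the mock list (x axis) for shared pairs with the mock summit between genes (left, 842 pairs) and in coding sequence (right, 496 pairs), with the line of equal percentiles. Vertical bands are tied mock scores. Of the intergenic pairs 75.8% lie below the line, as do 55.8% of the coding pairs.

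Paired summits were close at most places but not in coding sequence. The median distance between 6-BA and mock summits was 132 bp, and 1045 of 1855 pairs (56.3%) had summits at most 200 bp apart. For mock summits between genes the median was 76 bp, against 550 bp for mock summits in coding sequence, where 27.0% of pairs were at most 200 bp apart. In the 810 pairs with summits more than 200 bp apart, the 6-BA summit was within 250 bp of a TSS in 36.5% and the mock summit in 17.4%. In the same pairs the 6-BA summit was in coding sequence in 15.9% and the mock summit in 44.7%. In these pairs the 6-BA summit was thus at the gene start more often, and in coding sequence less often, than the mock summit of the same pair. Pairs are counted per mock peak, and 197 6-BA peaks covered more than 1 mock peak. The same 6-BA summit can therefore enter several pairs, which are not all separate sites.

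The 5 shared pairs with the largest shift towards the top of the 6-BA list were at SDR4, NF-YA7, CRK11, UGT74E2 and NDB2. SDR4, a short-chain dehydrogenase gene, had a score of 75.60 after 6-BA (percentile 1.13) and 4.89 after mock (percentile 99.1), with the 6-BA summit at −305 bp from the TSS. NF-YA7, a subunit of the CCAAT-binding factor NF-Y, had 54.93 after 6-BA and 4.88 after mock, with summits 22 bp apart and the 6-BA summit at −91 bp. CRK11, a receptor-like kinase with cysteine-rich repeats, had 73.73 after 6-BA and 5.03 after mock at −63 bp. UGT74E2, which glucosylates indole-3-butyric acid, had 73.10 after 6-BA and 5.03 after mock, and NDB2, an NAD(P)H dehydrogenase of the mitochondrion, 57.64 and 4.97. The mock summit was 1449 bp away from the 6-BA summit at SDR4 and 1075 bp away at UGT74E2, against 18 bp at CRK11 and 3 bp at NDB2, so the scores at SDR4 and UGT74E2 belong to different positions in overlapping peaks. Of these 5 6-BA summits 3 were upstream of the gene, 1 within its first 250 bp and 1, at UGT74E2, further inside.

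The 5 largest shifts the other way all had the 6-BA summit inside a gene. The largest was at LHB1B2, also called LHCB1.5, which encodes a light-harvesting protein of photosystem II, with a score of 9.96 after 6-BA (percentile 99.2) and 23.28 after mock (percentile 0.963). AT4G36850, a PQ-loop transmembrane protein gene, had 10.15 after 6-BA and 10.86 after mock, and MES9, a methyl esterase gene, 10.44 and 8.16. NSP1, a nitrile specifier gene of glucosinolate breakdown, had 11.66 after 6-BA and 10.30 after mock, and AT1G22190, an AP2/ERF gene, 11.85 and 10.61. Summits were 657, 571, 186, 71 and 270 bp apart in these pairs, in the order given. All 5 were near the bottom of the 6-BA list, at percentiles of 82.5 to 99.2, and at percentiles of 0.963 to 17.1 in the mock list.

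The 5 highest 6-BA only peaks had scores of 82.60 to 99.23 and fold enrichments of 4.20 to 4.75. The first, with 99.23, lay downstream of AT1G02210, which encodes a NAC-domain protein, and the others were at AT4G03600, a pyrroline-5-carboxylate reductase gene (87.76), at the non-coding RNA gene AT4G09485 (87.15), at AT3G49115 (85.19) and upstream of TLP1, a tubby-like protein gene (82.60). Each of these peaks was overlapped in all of the 8 other lists of the series, the ARR10 lists and the 6 others alike, and each 200-bp summit window held at least 2 motif matches. The 5 highest mock only peaks scored 13.22 to 23.33, with fold enrichments of 3.66 to 4.90. CAB2, also called LHCB1.1, came first (23.33), followed by DELTA-TIP, an aquaporin of the vacuole membrane (21.88), ELP, an extensin-like protein gene (16.73), and LHB1B1 and AT4G29905 (13.22 each). All 5 summits were inside a gene, 4 of them in coding sequence, and 4 of the windows held 0 matches. These peaks were overlapped in 3 to 5 of the 8 other lists, and in 2 or 3 of the 6 without ARR10.

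The annotation at the summit differed between the classes. Mock only summits lay in coding sequence in 916 of 1469 cases (62.4%, 59.8–64.8%), against 496 of 1855 (26.7%, 24.8–28.8%) for overlapped mock peaks. After 6-BA the shares were 463 of 6210 (7.46%, 6.83–8.14%) for 6-BA only peaks and 236 of 1636 (14.4%, 12.8–16.2%) for overlapped peaks. Coding sequence made up 28.3% of the chromosomes. Summits between genes made up 57.0% of 6-BA only, 53.2% of overlapped 6-BA, 18.2% of mock only and 45.4% of overlapped mock peaks, against 35.9% of the bases. At equal numbers of peaks the contrast was the same in kind, with 7.16% of the top 6-BA summits and 42.5% of the mock summits in coding sequence. The highest peaks showed it too. In the highest 10% of each list 12.4% (10.2–14.9%) of 6-BA and 49.1% (43.8–54.5%) of mock summits lay inside a gene and more than 250 bp from both of its ends.

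**Figure D3:**
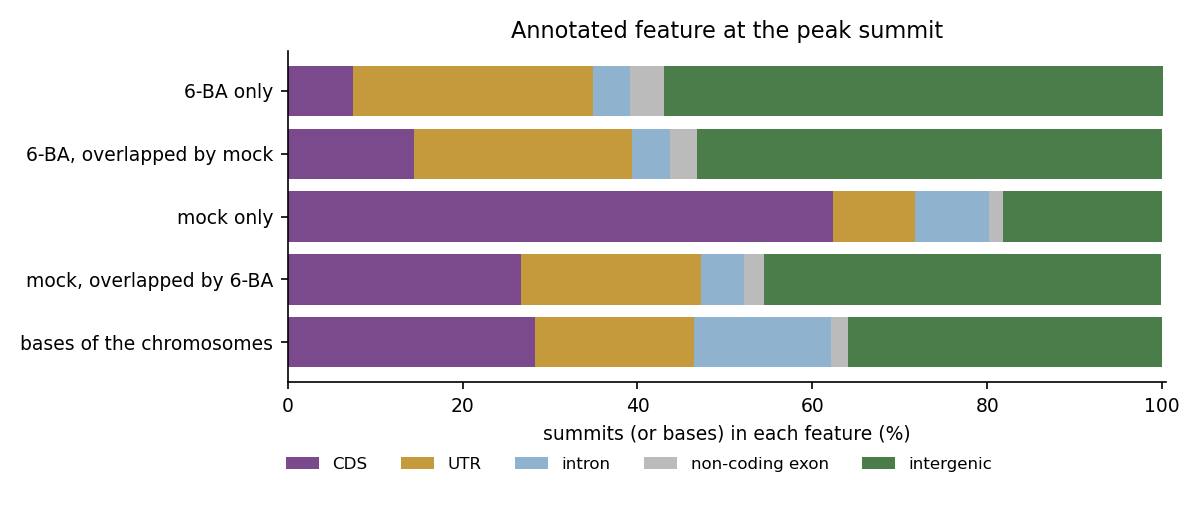
Share of summits (%) in coding sequence (CDS), untranslated exon (UTR), intron, non-coding exon and between genes, for the 4 classes of peaks, with the share of all chromosome bases in each feature at the bottom. Coding sequence holds 7.46% of 6-BA only and 62.4% of mock only summits.

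Distance to the gene start showed the same division. Within 250 bp of a TSS lay 42.5% (41.3–43.8%) of 6-BA only, 36.1% (33.8–38.5%) of overlapped 6-BA, 13.0% (11.4–14.8%) of mock only and 27.1% (25.1–29.1%) of overlapped mock summits. The share of all bases that close to a TSS was 15%. At equal numbers of peaks 38.4% of the 6-BA and 20.8% of the mock summits were that close. In the 6-BA list it was 37.2% (33.9–40.7%) in the highest 10% of peaks and 43.7% (40.3–47.2%) in the lowest 10%. In the mock list the shares were 15.4% (11.9–19.6%) and 19.8% (15.9–24.4%).

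Over all features together, the motif was more frequent at the summit than at the sides for the 6-BA peaks and the overlapped mock peaks, and less frequent for the mock only peaks. Within features the mock classes were mixed. In the 200-bp summit window it was found at 66.5% (65.4–67.7%) of 6-BA only peaks and in 60.2% (59.3–61.0%) of windows 500 bp to each side. For overlapped 6-BA peaks the shares were 68.5% (66.2–70.7%) at the summit and 61.4% at the sides. For mock only peaks they were 53.8% (51.3–56.4%) at the summit and 58.8% (57.1–60.6%) at the sides, and for overlapped mock peaks 65.4% (63.2–67.5%) and 61.3% (59.8–62.9%). Of all 200-bp tiles of the chromosomes 59.4% held the motif, so single matches are common anywhere. In the highest 10% of the 6-BA list 76.3% (73.2–79.1%) of summit windows held it, against 59.1% (55.6–62.5%) in the lowest 10%. The highest and lowest 10% of the mock list had 63.6% (58.2–68.5%) and 55.0% (49.6–60.2%).

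Base composition moved with these classes. Mean GC content of the summit windows was 37.6% for 6-BA only, 38.2% for overlapped 6-BA, 42.4% for mock only and 38.4% for overlapped mock peaks. Among summits between genes, where mean GC content was 36.3% for 6-BA only and 29.7% for mock only peaks, the motif was in 65.9% (64.3–67.4%) and 60.1% (54.1–65.8%) of windows. Among summits in coding sequence it was in 61.3% (56.8–65.7%) of 6-BA only windows, with 45.0% GC, and in 51.4% (48.2–54.6%) of mock only windows, with 47.2% GC. At the sides of mock only summits the shares were 57.6% for those between genes and 59.0% for those in coding sequence. The overlapped mock summits in coding sequence also had less at the summit, 57.7% (53.3–61.9%), than at the sides, 63.0%. Coding 6-BA only summits had 61.3% at the summit and 59.1% at the sides. The part of composition and feature in the difference between classes was not tested.

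**Figure D4:**
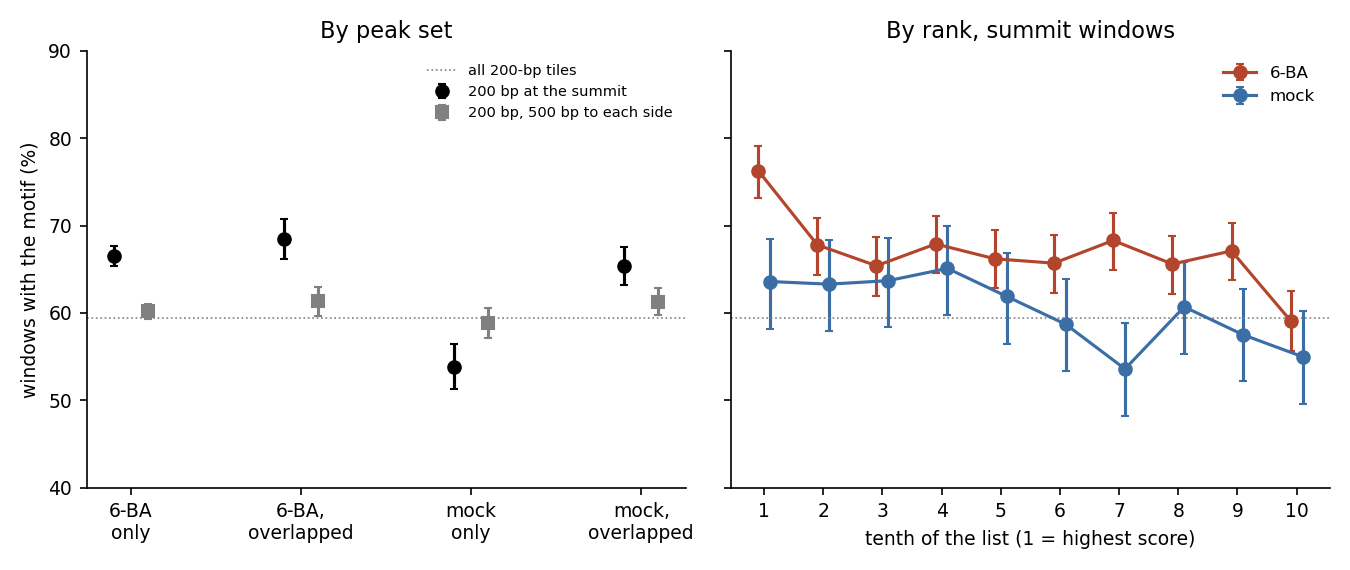
Left, share of 200-bp windows (%, with 95% Wilson intervals) that hold the motif, at the summit (black) and 500 bp to each side (grey), for the 4 classes. Right, the same share at the summit in 10 rank bins of the 6-BA (red) and mock (blue) lists, with all 200-bp tiles (59.4%) as a dotted line and a y axis that starts at 40%. Mock only peaks have 53.8% at the summit and 58.8% at the sides.

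The other lists of the series, which the division did not use, between them held nearly all 6-BA only peaks and a minority of the mock only peaks. The ARR1 list after 3 days of 10 µM 6-BA overlapped 85.3% of 6-BA only, 90.7% of overlapped 6-BA, 12.5% of mock only and 87.5% of overlapped mock peaks. For the ARR1 mock list of etiolated seedlings the shares were 11.6%, 40.6%, 1.02% and 38.5% in these classes. Peaks of ARR1∆DDK, a form without the receiver domain that was induced with dexamethasone, overlapped 25.7% of 6-BA only and 1.36% of mock only peaks. ARR14 after 3 days of 6-BA gave 73.4% and 10.4%. The list labelled ARR12 mock gave 55.6% and 4.15%, and that labelled ARR12 6-BA 25.7% and 2.25%. ARR10 mock gave 88.6% and 17.1%, and ARR10 after 4 h of 6-BA 82.7% and 10.8%. For ARR10 and ARR12 the lists labelled 6-BA thus overlapped fewer 6-BA only peaks than those labelled mock. None of the 8 other lists held 110 of 6210 6-BA only peaks (1.77%) and 1078 of 1469 mock only peaks (73.4%, 71.1–75.6%). Without the lists labelled ARR10 these shares were 7.71% and 81.2%.

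The contrast was also present among mock peaks of similar rank. These peaks were matched by rank and not by width. A wide peak meets the rule of 1 bp more readily, here and in the shares given above for the other lists. In the highest 20% of the mock list, where the median score was 8.68 for the 72 mock only and 9.75 for the 592 overlapped peaks, ARR10 mock overlapped 40.3% (29.7–51.8%) and 99.3% (98.3–99.7%). In the lowest 20%, with medians of 5.28 and 5.31, it overlapped 12.1% (9.36–15.6%) of 420 mock only and 92.7% (88.7–95.3%) of 245 overlapped peaks. In the list labelled ARR12 mock the shares were 6.94% (3–15.2%) and 85.6% (82.6–88.2%) in the highest 20%, and 3.33% and 67.3% in the lowest. The share of summits in coding sequence likewise stayed apart by rank, at 79.2% (68.4–86.9%) of mock only and 31.1% (27.5–34.9%) of overlapped mock peaks in the highest 20%, and 62.6% and 30.2% in the lowest.

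A gene was called near a list when its body, extended by 1.5 kb at both ends, held a summit. By this rule 10703 of 37899 nuclear genes (28.2%) were near a 6-BA peak and 4951 (13.1%) near a mock peak, and 4933 (13.0%) were near one of the 3324 top 6-BA peaks. Both conditions shared 3040 genes, which are 28.4% of the 6-BA genes and 61.4% of the mock genes, while 7663 were near 6-BA peaks alone and 1911 near mock peaks alone. At equal numbers of peaks 2134 genes were shared, 43.3% of the 6-BA and 43.1% of the mock genes. For protein-coding genes the background was 32.7% for all 6-BA peaks, 15.2% for the top 6-BA peaks and 15.2% for the mock peaks, and the gene lists below are read against these shares. Scores also depend on read depth, so genes are compared at equal numbers of peaks, and scores of single genes are given side by side only. For each of the 17 gene lists, the Wilson intervals of the shares near top 6-BA and near mock peaks overlapped, so the differences in number described here are counts that the intervals do not separate.

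Type-A regulators were covered in full after 6-BA. All 10 were near a top 6-BA peak (100%, 72.2–100%) and 7 near a mock peak. ARR15, which had a score of 79.39 after 6-BA, ARR16 (59.90) and ARR17 (29.34) were near no mock peak. ARR7 had 81.92 after 6-BA and 16.32 after mock, with summits at −8 and −34 bp from its TSS, and ARR9 had 87.70 and 8.22 with summits at −233 and −241 bp. ARR5 and ARR6 were near shared peaks whose summits differed in place, at 60 bp from the TSS after 6-BA and 1459 bp after mock for ARR5, and at 185 bp and 1106 bp for ARR6.

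More receptor, phosphotransfer, breakdown and conjugation genes were near top 6-BA peaks than near mock peaks, whereas synthesis and type-B genes were near both in similar numbers. Of 9 receptor and phosphotransfer genes, 4 (44.4%, 18.9–73.3%) were near a top 6-BA peak and 1 (11.1%, 1.99–43.5%), the receptor gene AHK4, near a mock peak. AHK4 scored 93.13 after 6-BA and 6.21 after mock, with summits at 756 bp and 716 bp. The phosphotransfer genes AHP1 (28.89) and AHP3 (22.08) and the receptor gene AHK3 (23.68) were near 6-BA peaks alone. Of 10 genes of breakdown and conjugation, 7 (70%, 39.7–89.2%) were near a top 6-BA peak and 5 (50%, 23.7–76.3%) near a mock peak. UGT76C2, a glucosyltransferase that inactivates cytokinins, scored 67.60 at −30 bp after 6-BA and was near no mock peak, and CKX4 scored 51.97 after 6-BA and 5.75 after mock in peaks that did not overlap. Only CKX1 was near a mock peak (5.31) and no 6-BA peak. Of 19 synthesis and activation genes, 4 were near a top 6-BA peak and 5 near a mock peak, led by LOG2, a cytokinin-activating enzyme, with 70.81 after 6-BA and 11.44 after mock. Of the 11 type-B regulators, 4 were near a top 6-BA peak and 4 near a mock peak, and the peaks at ARR1 are those of the tagged transgene's own locus. The cytokinin response factors, AP2/ERF proteins, had 5 of 6 (43.6–97%) near a top 6-BA peak and 1 (3.01–56.4%) near a mock peak. This was CRF6, with 51.42 after 6-BA at −336 bp and 7.82 after mock at 419 bp.

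Among the genes of other hormones, more Aux/IAA repressors of auxin response were near top 6-BA peaks than near mock peaks. Of 29, 16 (55.2%, 37.5–71.6%) were near a top 6-BA peak and 8 (27.6%, 14.7–45.7%) near a mock peak. At these equal numbers 10 of the 29 were near top 6-BA peaks alone and 2 near mock peaks alone. Over all protein-coding genes these shares were 8.53% and 8.58%. IAA2 (53.51 at 116 bp), IAA5 (35.82 at −125 bp) and IAA1 (32.31 at −116 bp) were near 6-BA peaks alone, while IAA16 scored 92.46 after 6-BA and 20.46 after mock, with summits at −285 bp and 2457 bp. Auxin receptors and transporters had 8 of 18 near a top 6-BA peak and 5 near a mock peak. Of 18 abscisic acid genes 9 were near a top 6-BA and 5 near a mock peak, of 14 jasmonate genes 6 and 3, and of 5 brassinosteroid genes 4 and 3. Ethylene genes had 6 of 11 near a top 6-BA peak and 6 near a mock peak, with EBF2 at 59.90 after 6-BA and 13.35 after mock. Gibberellin genes had 3 of 8 near each. Shoot meristem genes had 1 of 13 near each, but not the same gene. CLV1 was near a top 6-BA peak (27.56) and STM near a mock peak (5.75). The stem cell regulator WUS was near a 6-BA peak of 16.72 and no mock peak. That 6-BA peak stood at percentile 54.6, below the top 6-BA peaks, so at equal numbers WUS was near neither list.

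Clock and light signalling genes were near 6-BA peaks in 20 of 24 cases, 15 of them near a top 6-BA peak, and near mock peaks in 9. The photoperiod gene GI scored 81.31 after 6-BA and 5.75 after mock, with summits at −731 and −728 bp. CCA1, a morning regulator of the clock, had 85.84 after 6-BA and 14.46 after mock, at −210 and −211 bp. PRR9 (78.12), PRR5 (60.48) and PRR7 (37.83), which repress the morning genes, were near 6-BA peaks alone. PIF7, a phytochrome-interacting factor, had 80.03 after 6-BA and 7.65 after mock.

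More light-harvesting genes were near mock peaks than near top 6-BA peaks. Of 17, 4 (23.5%, 9.56–47.3%) were near a top 6-BA peak, 9 near any 6-BA peak and 12 (70.6%, 46.9–86.7%) near a mock peak, and with the 1000 highest peaks of each list, a setting chosen after seeing the data, the numbers were 1 and 9. The members near a mock peak and no 6-BA peak were LHCB1.1 (23.33), LHCB2.2 (8.58), LHCB1.2 (8.12) and LHCB1.3 (6.26). Their mock summits lay 448 to 873 bp past the TSS, inside the gene. LHCB1.4, or LHB1B1, had a mock peak of 13.22 with its summit at 441 bp. The 6-BA peak near it (9.96) has its summit inside LHCB1.5, at −1133 bp from the TSS of LHCB1.4. That 6-BA peak does not overlap the mock peak of LHCB1.4, and it counts for both genes. LHCB6 was unlike these, with 41.29 after 6-BA at 75 bp and 7.73 after mock at 264 bp. The LHCB1 genes are close copies of each other, and only reads with a single best place were kept by the authors, so reads common to the copies are not counted in them. Genes used as constant references, such as ubiquitins, actins and tubulins, had 7 of 19 near a top 6-BA peak and 9 near a mock peak. UBQ4 was near a mock peak of 12.02 and no 6-BA peak, but this summit lay at −753 bp, in the coding sequence of another gene. The actin gene ACT7 scored 78.17 after 6-BA and 6.54 after mock, at −110 and −100 bp.

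**Figure D5:**
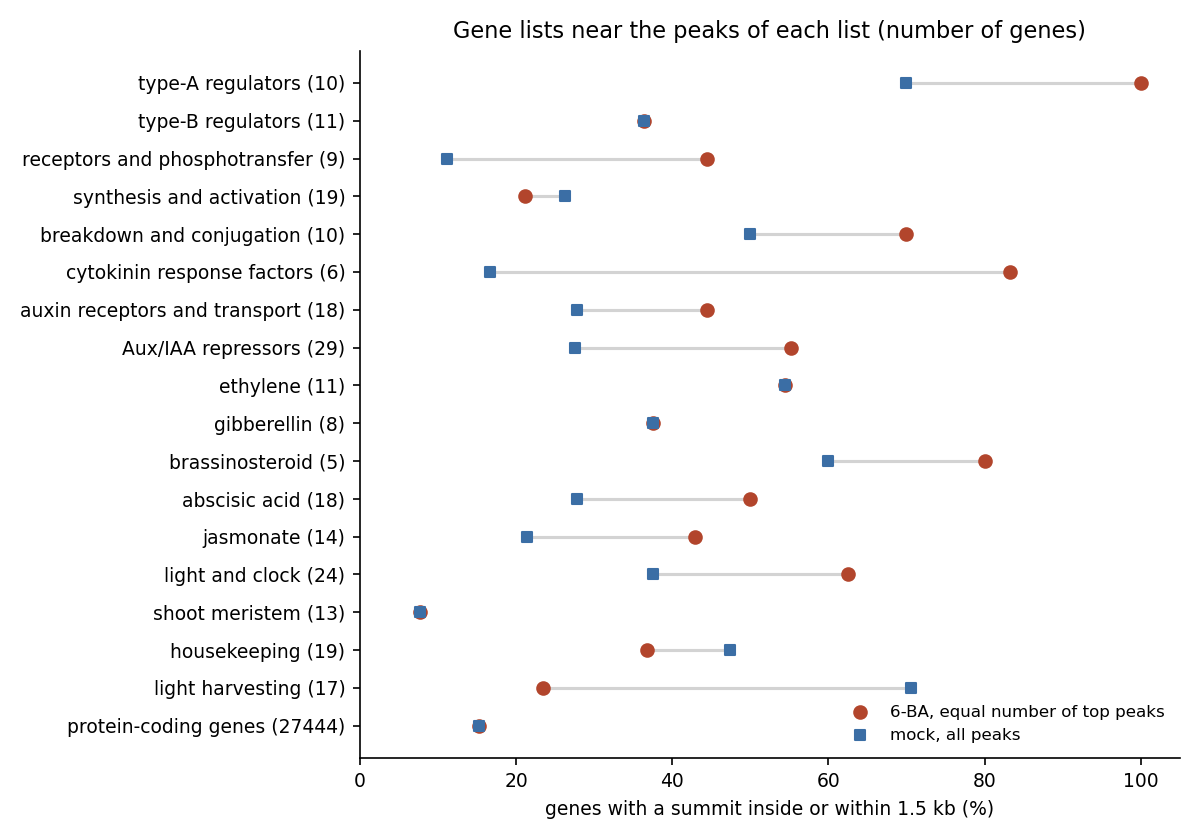
Share of the genes of each list (%) with a summit inside or within 1.5 kb, for the 3324 top 6-BA peaks (red circles) and all 3324 mock peaks (blue squares), with the number of genes in parentheses and all protein-coding genes (15.2% in both) at the bottom. Type-A regulators stand at 100% and 70.0%, and light-harvesting genes at 23.5% and 70.6%.

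Larger classes, which were formed from words in the annotated product, are given at equal numbers of peaks. WRKY genes were near a top 6-BA peak in 36.1% (26–47.6%) and near a mock peak in 33.3% (23.5–44.8%) of 72 cases, and ethylene-responsive or ERF genes in 55.6% and 44.4% of 27. Kinase genes had 20.5% (18.5–22.7%) and 18% (16.1–20.1%) of 1388, homeobox genes 22.1% and 20.2% of 208, MYB genes 18.9% and 18.9% of 180, bHLH genes 23.3% and 17.3% of 133, and SAUR genes 21.8% and 23.1% of 78. For cytochrome P450 genes the shares were 16.5% (12.4–21.7%) and 22.6% (17.8–28.2%) of 248. Genes with the word histone had 15.7% in both, ribosomal protein genes 8.52% and 7.14% of 364, and F-box genes 6.40% and 8.38% of 656. In each of these classes the intervals of both conditions overlapped. Against a background of 13.0% and 13.1% over all genes, tRNA genes had 7.68% and 8.80% of 625 and microRNA genes 7.36% and 6.75% of 326. Pseudogenes were the exception, with 1.2% (0.904–1.59%) near a top 6-BA peak and 3.29% (2.78–3.90%) near a mock peak of 3917.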

How the data were processed

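Per the submitters' processing notes and the study's methods, the authors aligned uniquely placed reads to TAIR10 with Bowtie 0.12.7, called peaks against input with MACS2 2.0.10 and combined at least 2 replicates per condition by irreproducible discovery rate. The deposited lists give for each peak a score (10 times the next value, cut to a whole number), the fold enrichment as a ratio, the −log10 p-value and the summit offset. Peaks were ranked by the −log10 p-value (ties by fold enrichment). Overlap was 1 bp. Genes were 37899 nuclear entries of the TAIR10.1 annotation (27444 protein-coding), and 241 of 243 symbols in 17 lists matched 1 gene. Shares carry Wilson intervals and no test was run. Genes were named if in these lists or at the 5 highest peaks, single-condition peaks or rank shifts. Members and lists were chosen with earlier results of these data known. Alternatives changed overlap, score, width, windows, distance and peak number. Depth is unknown. Steps were tested on simulated data. Matplotlib 3.10.9, SciPy 1.17.1, pandas 2.3.3 and NumPy 2.4.6 were run under Python 3.11.15.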

Additional observations from a re-analysis of the deposited data

How the results depend on the processing

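Of 65 alternatives, 26 left the value within its interval or within 1.5 times its count and 39 moved it. A reversal was defined only for the rank correlation, which stayed positive in each of its settings. No paired analysis was possible because the replicates were merged before deposit. For 6-BA peaks that overlap a mock peak (20.9%), the share was 7.38% with reciprocal overlap of at least 50%, 13.4% with summits at most 200 bp apart, 1.48% with a score of at least 16 in both lists and 18.2% without peaks over 3 kb wide. For mock peaks that overlap a 6-BA peak (55.8%) these settings gave 17.4%, 31.5%, 93.2% and 43.4%. Leaving out peaks within 50 kb of ARR1 gave 20.8% and 55.7%. For mock peaks that overlap a top 6-BA peak (42.7%), the 1000 top peaks gave 44.8%, reciprocal overlap 12.9% and the summit rule 24.5%. Spearman's rho (0.35) was 0.39 with the summit rule.

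For summits near a TSS, protein-coding genes only gave 38.4% for 6-BA only, 32.8% for overlapped 6-BA, 10.3% for mock only and 24.0% for overlapped mock peaks. With a distance of 500 bp the shares were 53.7%, 49%, 30.6% and 42.2% in these classes, and equal numbers of peaks moved 6-BA only to 39.2% and mock only to 15.1%. The motif was in 43.6%, 46.4%, 32.1% and 42.3% of 100-bp windows and in 86.5%, 89.4%, 79.4% and 87.4% of 400-bp windows, and equal numbers moved 6-BA only to 68.5%. The order of the mock only class, lowest, was the same in each of these settings. With the nearest gene only, 6301 genes were near 6-BA peaks, 2838 near mock peaks and 1546 near both. A score of at least 16 gave 6629, 137 and 119, and equal numbers gave 4933 for 6-BA. With the 1000 top peaks, a setting added after seeing the data, light-harvesting genes had 5.88% near 6-BA and 52.9% near mock peaks, and 8 and 5 of the 10 type-A regulators were near them.

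The mock list has 73 peaks with a score of at least 16, and without counts per replicate it cannot be told how much of its shorter reach is depth.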

Other observations

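Gene-poor stretches held mock only peaks more often than the other classes. In the 15 complete windows of 1 Mb with fewer than 100 protein-coding genes, which were chosen after seeing the data and make up 12.6% of the chromosomes, lay 59 of 6210 6-BA only summits (0.950%, 0.737–1.22%) and 84 of 1469 mock only summits (5.72%, 4.64–7.03%). Overlapped peaks had 0.917% in the 6-BA list and 0.809% in the mock list. These windows hold 2.54% of the protein-coding genes.

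Of 3917 pseudogenes, those near mock peaks alone (104) were as many as those near 6-BA peaks alone (104), although the 6-BA list is the longer, and 25 were near both. Over all 37899 genes 5.04% were near mock peaks alone and 20.2% near 6-BA peaks alone, so pseudogenes stood below the share of all genes in each.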
